A study of Oryctolagus cuniculus with 6 samples.

Results

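The genes described here build, anchor or remodel the extracellular matrix: collagens, laminins, nidogens, fibronectin, proteoglycans, integrins and matrix metalloproteinases. They were taken from the array's own annotation, as the non-control probes whose description names one of these protein classes. The search found 279 probes of 108 genes, out of 43603 non-control probes, and each gene was represented by its brightest probe over the 6 arrays. For 77 of the 108 genes that probe passed the filter for measurable signal, which asked for a signal well above background in at least 3 of 12 channel measurements. For 41 of the 77 all 12 measurements were well above background.

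RNA came from blastocysts of New Zealand White rabbits, aged 6 days, and was read on 6 arrays, each with a red (Cy5) and a green (Cy3) channel. Vitrified embryos had been equilibrated in dimethyl sulphoxide and ethylene glycol (12.5% of each, then 20% of each), plunged into liquid nitrogen, warmed, and transferred into recipient females. Frozen embryos had been brought in steps to 1.5 M dimethyl sulphoxide, cooled slowly after seeding of ice, thawed and transferred. Untreated embryos of the same age and strain, developed in vivo, were the controls. Both treated groups had been transferred, so cryopreservation and transfer cannot be told apart in the ratios over untreated embryos. Every array compared 1 treated with 1 untreated extract, and each treatment had 3 arrays. Only embryos still viable on day 6 were used, and the number of embryos per extract is not given in the sources used here. The labels name the same untreated extract for equal replicate numbers, so both treatments are read against the same controls. Replicates 1 and 3 had the treated RNA in red, and replicate 2 had it in green. Of an array's spots, 44.7% to 58% gave a green signal clearly over background and 64.2% to 74.5% a red one. Slide 1 held vitrified replicate 1 with frozen replicates 1 and 2, and slide 2 held vitrified replicates 2 and 3 with frozen replicate 3. Markers of trophectoderm (5 tested genes, KRT8 and GATA3 among them) and of epiblast (3 tested genes, POU5F1 among them) were measurable, while CDX2, ELF5, EOMES, KRT18 and TEAD4 had no tested probe.

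A basement membrane is a thin sheet of matrix under an epithelium, made of a laminin network and a type IV collagen network that nidogens and heparan sulphate proteoglycans join. In the blastocyst such sheets form under the trophectoderm and along the hypoblast, and the parietal endoderm of rodents is known for secreting large amounts of laminin, nidogen and type IV collagen. Integrins are receptors of an alpha and a beta chain that bind these proteins and fibronectin and connect them to the cell's actin cytoskeleton. Metalloproteinases cut matrix proteins, and tissue inhibitors of metalloproteinases hold them in check.

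Nidogen 1, encoded by NID1, is the link between laminin and type IV collagen, and it is described first because it passed the test. The array carries 2 probes for it, shown here because they gave changes of different size. Capitals mark the longest run that both probes share, 11 bases.
NID1 brighter probe: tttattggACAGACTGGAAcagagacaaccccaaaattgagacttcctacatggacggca
NID1 other probe: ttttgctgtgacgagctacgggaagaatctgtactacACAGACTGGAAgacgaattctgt
The files place the brighter probe at chr16:32068349-32068408 on the minus strand and the other at chr16:32233937-32234618 on the plus strand, on a build that is not given in the sources used here. In these placements their starts lie 165588 bases apart, and the files list both under the same gene number. Opposite strands conflict with a single transcribed gene, so the placement and the distance may not be correct. The other probe spans more genome than its 60 bases, as a probe across an exon junction does.

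NID1 was lower in frozen than in untreated embryos by 1.23 ± 0.15 on the log2 scale (SE, n = 3 arrays, fitted value -1.23), which is 2.35-fold. The log2 intensity of the brighter probe in frozen embryos was 9.33, 8.85 and 8.69 for replicates 1, 2 and 3, against 10.27, 10.27 and 9.905 in the untreated embryos on the same arrays. Every frozen value lay below every untreated value. The means were 8.96 ± 0.33 in frozen embryos and 10.15 ± 0.21 in untreated embryos (SD, n = 3 each). The log2 ratios of the 3 arrays were -0.93, -1.42 and -1.21. The change passed the test (limma, adjusted p = 0.0427 over all tested probes), and NID1 was the only one of the 77 tested genes that passed in any of the 3 comparisons. In bulk RNA, fewer cells of a type and less RNA per cell cannot be told apart.

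In vitrified embryos the same NID1 probe had log2 intensities of 9.06, 9.66 and 9.84, against 9.86, 10.26 and 9.87 in untreated embryos. The log2 ratios were -0.80, -0.60 and -0.035, so replicate 3 showed almost no difference. The fitted value was -0.52 ± 0.15 and did not pass (adjusted p = 0.195, limma), and it was -0.32 without vitrified replicate 1. The difference between the treatments, vitrified minus frozen, was 0.71 ± 0.21 (adjusted p = 0.593, limma). Every vitrified ratio lay above every frozen ratio, as it did for 5.75% of all tested probes.

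The other NID1 probe gave values closer to 0. Its log2 intensity was 8.56, 8.47 and 8.42 in frozen embryos, against 9.04, 9.33 and 8.64 in untreated embryos, and the fitted ratio was -0.56 ± 0.17 (adjusted p = 0.219, limma). Its log2 ratios in frozen embryos were -0.48, -0.87 and -0.22. In vitrified embryos the ratios were -0.78, -0.35 and -0.02 with a fitted value of -0.42 (adjusted p = 0.262, limma). In frozen embryos this probe passed without vitrified replicate 1 (adjusted p = 0.0482) and with separate channels (0.0413), and its ratio was -0.32 without frozen replicate 2. Both probes were thus below 0 on all 6 arrays, and they differed by 0.67 in the size of the frozen ratio.

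The NID1 call in frozen embryos rested on a narrow margin. It was lost without vitrified replicate 2 (adjusted p = 0.109), vitrified replicate 3 (0.0809), frozen replicate 1 (0.0682), frozen replicate 2 (1) or frozen replicate 3 (0.238), and it held without vitrified replicate 1 (0.0149), while the fitted ratio stayed between -1.315 and -1.165 (all limma). With slide as a covariate the adjusted p was 0.0853 or 0.0849, depending on whether slide acted on the dye ratio or on the treated over untreated ratio, and with the scanner software's own ratios it was 0.2. The fit that reads the channels separately gave an adjusted p of 0.00186 (limma). It called 860 probes over the array in frozen embryos, against 57. That fit treats the untreated channels as separate samples, although the labels name the same untreated extract for equal replicate numbers.

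**Figure D1:**
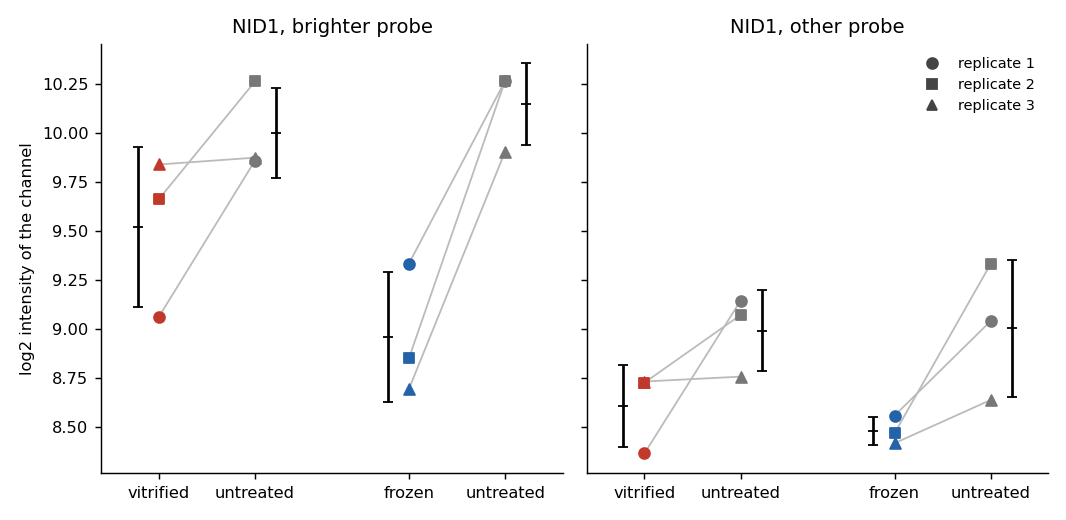
Log2 intensity (vertical axis) of both NID1 probes in each channel of the 6 arrays. Lines join the treated and the untreated channel of an array, marker shapes are replicates, and black bars are mean ± SD of 3. For the brighter probe the 3 frozen values, 8.69 to 9.33, all lie under the 3 untreated values on the same arrays, and the vitrified line of replicate 3 is nearly flat.

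Over the whole array 0.0195% of the tested probes passed with higher and 0% with lower signal in vitrified embryos (6 and 0 of 30761), and none of the 77 genes did. Of the 12 genes with an unadjusted p under 0.05 and a lower value in frozen embryos, only NID1 passed after adjustment, against 0.0975% of all probes passing lower and 0.0878% passing higher (30 and 27 probes). The 12 genes (NID1, MMP3, CTHRC1, COL5A1, EGFLAM, PLOD2, ITGA1, FLRT3, COL4A5, COL23A1, FN1 and COL1A2) are 15.6% of the 77, beside 7.17% of all tested probes. In the other direction the count was 1 gene, ITGA2, or 1.3%, beside 6.06% of all probes. In vitrified embryos 6 genes were higher at that level (COL2A1, ILK, MMP2, TIMP1, LAMB2 and MMP1, 7.79%, beside 9.98% of all probes) and 4 were lower (NID1, EGFLAM, COL15A1 and ITGB1, 5.19%, beside 7.39%). Counted over all 177 tested probes of these genes, 13 were higher (7.34%) and 16 lower (9.04%) in vitrified embryos, with a median of -0.007, and 3 were higher (1.69%) and 39 lower (22%) in frozen embryos, so the vitrified split depends on taking the brightest probe. The median log2 ratio of the 77 genes was 0.04 in vitrified embryos and -0.04 in frozen embryos, and that of all tested probes was 0.005 and 0.006. The typical matrix gene thus sat near 0 under both treatments, with a tail of lower values in frozen embryos. The signs of the single arrays come from the same ratios as the fitted values, so they are not separate evidence for that tail. On all 3 frozen arrays 20 of the 77 genes (26%) were below 0, beside 14.7% of all tested probes. Another 8 (10.4%) were above 0 on all 3, beside 15.7%. In vitrified embryos 6 genes (7.79%) were below 0 on all 3 arrays, beside 16.9% of all probes, and 14 (18.2%) were above, beside 20.4%. The shares of all probes were not matched for signal. Of the 41 genes well above background throughout, 11 (26.8%) were lower and 1 (2.44%) higher in frozen embryos at an unadjusted p under 0.05.

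**Figure D2:**
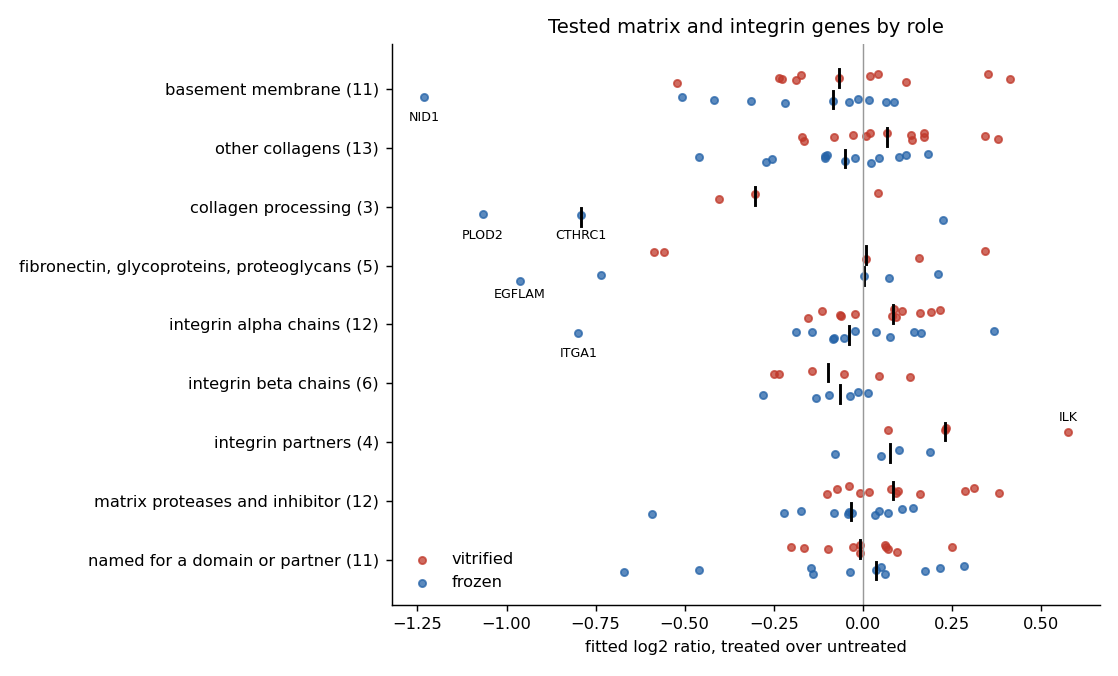
Fitted log2 ratio, treated over untreated (horizontal axis), of the 77 tested genes by role, with the number of tested genes in brackets. Each point is 1 gene, red for vitrified and blue for frozen embryos, and black bars are medians. Most points lie near 0, and the lowest frozen values belong to NID1 (-1.23), PLOD2 (-1.07), EGFLAM (-0.96), ITGA1 (-0.80) and CTHRC1 (-0.79).

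Type IV collagen, the network that nidogen joins, is built from COL4A1 and COL4A2 chains in nearly all basement membranes. The probes of both genes are shown because they are close in sequence and both end in the stop codon TGA; capitals mark the 39 of 60 bases that are the same at the same position.
COL4A1 probe: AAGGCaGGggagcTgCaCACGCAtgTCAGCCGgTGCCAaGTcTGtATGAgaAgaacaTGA
COL4A2 probe: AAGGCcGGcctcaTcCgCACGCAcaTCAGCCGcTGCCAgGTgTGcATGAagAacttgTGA
The files place them at chr8:111526263-111526322 on the minus strand and chr8:111791401-111791457 on the plus strand. COL4A1 had log2 ratios of 0.24, 0.25 and 0.60 in vitrified embryos and -0.99, -0.27 and 0.35 in frozen embryos. COL4A2 had -0.60, 0.36 and 0.50 in vitrified embryos and -0.96, -0.535 and -0.14 in frozen embryos. Both genes were lowest on frozen replicate 1, and the arrays of a treatment spread widely. The fitted values were 0.35 ± 0.23 and 0.12 ± 0.23 in vitrified embryos and -0.31 ± 0.23 and -0.51 ± 0.23 in frozen embryos, and none passed (adjusted p between 0.407 and 0.825, limma). Without frozen replicate 1 the COL4A1 value in frozen embryos was 0.04.

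No other chain or partner of the basement membrane passed. COL4A5, a chain of specialised basement membranes, had -0.46, -0.25 and 0.315 in vitrified embryos and was below 0 on all 3 frozen arrays (-0.22, -0.705 and -0.16, fitted -0.42 ± 0.15, adjusted p = 0.307). COL4A6, its partner chain, was below 0 on all 6 arrays with fitted values of -0.23 in vitrified and -0.22 in frozen embryos (adjusted p = 0.313 and 0.427). NID2, the second nidogen, had fitted values of 0.02 ± 0.11 in vitrified and -0.04 ± 0.11 in frozen embryos, with arrays of both signs under each treatment. LAMC1, the gamma chain of most laminins, spread from -0.81 to 1.16 over the 3 frozen arrays, on both sides of 0. LAMB2, a laminin beta chain, had ratios of 0.87, 0.31 and 0.245 in vitrified embryos (fitted 0.41 ± 0.15, adjusted p = 0.235) and 0.525, -0.17 and 0.08 in frozen embryos. The current gene table names that probe LAMB2, while the array's description calls it laminin gamma 1 with LAMB2 as a former name. The gene's other tested probe had fitted values of 0.12 in vitrified embryos (adjusted p = 0.541, limma) and 0.09 in frozen embryos. COL7A1, the anchoring fibril collagen, had fitted values of -0.17 in vitrified and 0.02 in frozen embryos. COL15A1, a collagen of the basement membrane's outer face, had -0.24 in vitrified embryos, and in frozen embryos it was not well above background on any of the 3 arrays, so no ratio is given. Of the 11 tested basement membrane genes 5 were above and 6 below 0 in vitrified embryos (median -0.07), and 3 were above and 8 below in frozen embryos (median -0.085). LAMA2, LAMA3, COL4A4 and NTN4 did not pass the filter.

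Most tested markers of hypoblast, visceral and parietal endoderm and yolk sac were below 0 in frozen embryos too. Of the 20 listed genes 12 were tested, and 7 of the 12 were below 0 in vitrified embryos and 9 of the 12 in frozen embryos. The median of their log2 ratios was -0.36, 0.20 and 0.26 on vitrified replicates 1, 2 and 3, and -0.415, -0.57 and -0.52 on the frozen arrays. All frozen arrays and vitrified replicate 1 were thus below 0, and the other two vitrified arrays were above. APOA2, an apolipoprotein of yolk sac endoderm, was lower in frozen embryos (ratios -1.28, -0.83 and -1.15, adjusted p = 0.0427, limma), and RBP4, TF and APOA1 had fitted values of -1.25, -1.195 and -1.13 there without passing. DAB2 and LRP2, endocytic proteins of the same list, lay the other way, above 0 on all 3 frozen arrays with fitted values of 0.66 and 0.19. AFP, also of that list, had frozen ratios of 0.74, -0.38 and 0.48, with a fitted value of 0.14. The APOA2 call was lost without frozen replicate 2 or without frozen replicate 3, where no probe on the array passed in frozen embryos. GATA6, SOX17, FOXA2 and HNF4A had no tested probe. The 3 tested epiblast markers of 8 had a median of -0.09 in vitrified and -0.51 in frozen embryos. In frozen embryos POU5F1 had -0.82 and OTX2 -0.51, while LIN28A had 0.002. The 5 tested trophectoderm markers of 10 had medians of 0.365 in vitrified and 0.34 in frozen embryos, close to each other. Single genes differed more, with vitrified minus frozen values from -0.32 to 0.32, 3 above and 2 below 0. Of the blood and uterine lists, 5 of 10 and 3 of 8 genes were tested; all 8 were above 0 in vitrified embryos and 6 in frozen embryos, with none passing. HBB2, a beta globin, had fitted values of 3.61 in vitrified and 1.92 in frozen embryos, and SCGB1A1, the rabbit's uteroglobin, 2.03 and 1.51. The part of these cells in the matrix values was not tested.

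Among enzymes that finish collagen, PLOD2, which hydroxylates lysines for collagen cross-links, had the lowest value after NID1. Its brightest probe, shown because all 3 of the gene's probes gave a low value, lies at chr14:39742595-39742654 on the minus strand and is printed without capitals.
PLOD2 probe: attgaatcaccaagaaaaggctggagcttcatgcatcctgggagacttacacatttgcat
PLOD2 had log2 ratios of -1.50, 0.22 and 0.03 in vitrified embryos and -1.56, -0.90 and -1.08 in frozen embryos. All 3 frozen arrays and vitrified replicate 1 were low, and vitrified replicates 2 and 3 were near the untreated level. The fitted ratio was -0.30 ± 0.27 in vitrified embryos (adjusted p = 0.597) and -1.07 ± 0.27 in frozen embryos (adjusted p = 0.172, limma), and the 3 probes ranged from -1.11 to -0.81 in frozen embryos. Without vitrified replicate 1 the vitrified value was 0.12, and the frozen value was -1.13 and passed (adjusted p = 0.0168). CTHRC1, a secreted protein with a collagen-like repeat, had vitrified ratios of -0.645, -0.67 and 0.36 (fitted -0.40) and frozen ratios of -0.52, -1.04 and -0.55 (fitted -0.79 ± 0.18, adjusted p = 0.145). PCOLCE2, an enhancer of procollagen cleavage, had fitted values of 0.04 in vitrified and 0.22 in frozen embryos.

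Fibril collagens lay on both sides of 0. COL5A1, which starts collagen fibrils, had 0.45, -0.36 and 0.25 in vitrified embryos and was below 0 on all 3 frozen arrays (-0.42, -0.63 and -0.055, fitted -0.46 ± 0.115, adjusted p = 0.171). COL1A2, a chain of type I collagen, had frozen ratios of -0.48, -0.10 and -0.32 (fitted -0.255, adjusted p = 0.351). Of its 11 probes 5 passed the filter, and all 5 were below 0 in frozen embryos. COL3A1, the fibril collagen of soft tissues, was above 0 on all 6 arrays at fitted values of 0.14 in vitrified and 0.12 in frozen embryos. COL2A1, the cartilage collagen, had vitrified ratios of 0.32, 0.52 and 0.175 on its brightest probe (fitted 0.38 ± 0.10, adjusted p = 0.186), but its 6 probes ranged from -0.04 to 0.38 there, with 3 above and 3 below 0. COL23A1, a transmembrane collagen, was among the 12 genes with an unadjusted p under 0.05 in frozen embryos, with fitted values of -0.17 in vitrified and -0.27 in frozen embryos. Of 13 tested collagens outside basement membranes 9 were above 0 in vitrified embryos (median 0.07) and 5 in frozen embryos (median -0.05).

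Fibronectin, encoded by FN1, is the glycoprotein that integrins assemble into fibrils, and all of its probes gave low values. The brightest one, printed without capitals, is placed at chr7:156707143-156707713 on the minus strand.
FN1 probe: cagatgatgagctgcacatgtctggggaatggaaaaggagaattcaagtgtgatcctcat
The log2 intensity of FN1 was 12.24, 13.08 and 13.415 in vitrified embryos, against 13.61, 13.56 and 13.08 in untreated embryos. In frozen embryos it was 12.58, 12.34 and 12.14, against 13.02, 13.47 and 12.625 in untreated embryos. FN1 was lower on all 3 frozen arrays and on vitrified replicates 1 and 2, and higher on vitrified replicate 3. The fitted ratio was -0.56 ± 0.29 in vitrified embryos (adjusted p = 0.36) and -0.74 ± 0.29 in frozen embryos (adjusted p = 0.34, limma). All 11 tested probes, which lie at 2 places in the gene and overlap within each, were below 0 under both treatments, from -0.70 to -0.52 in vitrified and from -1.04 to -0.62 in frozen embryos. Without vitrified replicate 1 the frozen ratio was -0.805 and passed (adjusted p = 0.0169).

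EGFLAM, also called pikachurin, is a secreted protein with laminin G and fibronectin type III domains that binds dystroglycan. It had log2 ratios of -1.34, -0.45 and 0.06 in vitrified embryos (fitted -0.59 ± 0.24, adjusted p = 0.274) and -0.88, -1.16 and -0.81 in frozen embryos (fitted -0.96 ± 0.24, adjusted p = 0.171, limma). All 5 overlapping probes were below 0 under both treatments. Without vitrified replicate 1 the frozen call passed (adjusted p = 0.0149). CSPG4, a membrane proteoglycan, and HAPLN1, which links hyaluronan to proteoglycans, had fitted values of 0.16 and 0.34 in vitrified and 0.003 and 0.21 in frozen embryos. HAPLN1 was well above background in 8 of 12 measurements, and its ratio on frozen replicate 1 (0.87) stood apart from -0.08 and 0.05 on the other two.

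**Figure D3:**
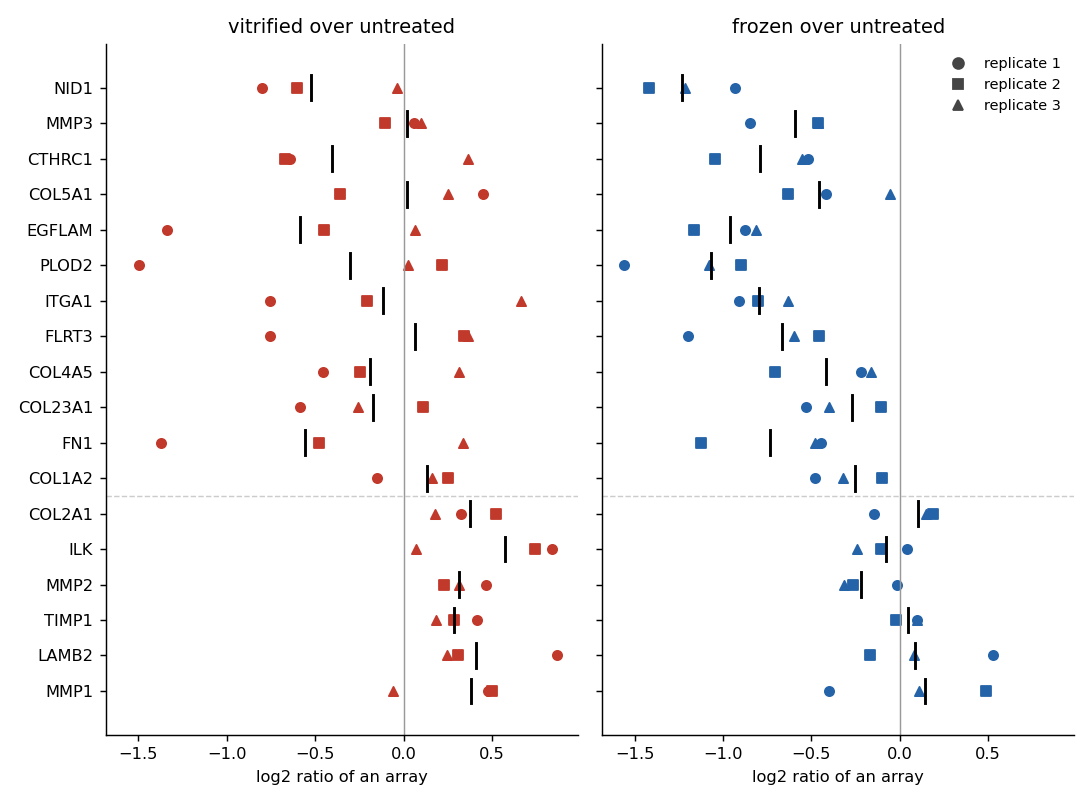
Log2 ratio over untreated embryos (horizontal axis) on each array, for vitrified (left) and frozen embryos (right). Genes above the dashed line had an unadjusted p under 0.05 and a lower value in frozen embryos, those under it a higher value in vitrified embryos, so the position of these rows is set by that choice. Marker shapes are replicates and black bars the fitted values. For NID1, PLOD2, EGFLAM, FN1, ITGA1 and FLRT3 vitrified replicate 1 lies at -0.75 or lower, apart from vitrified replicate 3.

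For several of these genes the values depended on vitrified replicate 1. Without it the vitrified ratio was -0.07 for FN1 and -0.19 for EGFLAM. Leaving it out raised the number of matrix genes called in frozen embryos to 6 (NID1, PLOD2, EGFLAM, CTHRC1, FN1 and ITGA1, all lower), but it also raised the number of probes called over the whole array to 502, against 57 with all 6 arrays. It is the only vitrified array on slide 1. Slide, scan and any difference between extracts cannot be told apart for it.

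Most integrin chains had fitted values near 0. Among alpha chains, ITGA1, which pairs with ITGB1 to bind collagen, had vitrified ratios of -0.75, -0.21 and 0.66 (fitted -0.115) and frozen ratios of -0.91, -0.80 and -0.635 (fitted -0.80 ± 0.24, adjusted p = 0.222). Its 3 probes were all below 0 under both treatments. ITGA2, another collagen-binding chain, had frozen ratios of 0.27, 0.18 and 0.68, the highest fitted value of the list in frozen embryos (0.37 ± 0.15, adjusted p = 0.365), and 3 of its 4 probes were above 0. ITGA3, a laminin receptor chain, had fitted values of 0.11 in vitrified and 0.16 in frozen embryos. ITGA5, the fibronectin receptor chain, had 0.09 and 0.08, with single arrays from -0.90 to 0.59. ITGAV, which binds fibronectin and vitronectin, had -0.15 and -0.08, with single arrays from -0.62 to 0.45. ITGA6, the main laminin receptor chain, had 0.09 and -0.19 on its brightest probe. Its 7 probes disagreed: in vitrified embryos they ranged from -0.48 to 0.555, with 4 above and 3 below 0. ITGA9, ITGA10, ITGA11, ITGAE, ITGAL and ITGAM lay between -0.06 and 0.22 in vitrified and between -0.14 and 0.14 in frozen embryos.

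Of the beta chains, ITGB1, the partner of most alpha chains, was below 0 on all 3 vitrified arrays (-0.29, -0.32 and -0.08, fitted -0.235 ± 0.10, adjusted p = 0.279) and close to 0 in frozen embryos (-0.003, 0.016 and -0.10, fitted -0.035) on its brightest probe. Its 7 probes disagreed in frozen embryos, where 5 lay between 0.16 and 0.25, with differences of -0.48 to -0.34 between vitrified and frozen embryos. ITGB4, which anchors hemidesmosomes with ITGA6, had fitted values of -0.14 and -0.13, and ITGB6, an epithelial chain, 0.045 and 0.01. ITGB2, the chain of white blood cell integrins, had -0.53, -0.44 and 0.35 in vitrified embryos, with a fitted value of -0.25, and 0.24, -0.18 and -0.21 in frozen embryos. None of the 18 tested alpha and beta chains passed in any comparison. The median of the 12 alpha chains was 0.08 in vitrified and -0.04 in frozen embryos, and that of the 6 beta chains -0.10 and -0.06.

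Integrin-linked kinase, encoded by ILK, joins the tails of beta integrins to actin, and it had the highest value of the list in vitrified embryos. Its brightest probe, shown because all 4 of the gene's probes were high in vitrified embryos, lies at chr1:147614892-147614951 on the plus strand.
ILK probe: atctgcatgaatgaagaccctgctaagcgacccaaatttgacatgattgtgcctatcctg
The log2 intensity of ILK was 12.65, 12.33 and 12.28 in vitrified embryos, against 11.81, 11.58 and 12.21 in untreated embryos. In frozen embryos it was 11.67, 12.095 and 11.85, against 11.62, 12.20 and 12.09 in untreated embryos. Vitrified replicates 1 and 2 were clearly above their controls and replicate 3 was level with its own (ratios 0.84, 0.75 and 0.07). The fitted ratio was 0.58 ± 0.16 in vitrified embryos (adjusted p = 0.186) and -0.08 ± 0.16 in frozen embryos (adjusted p = 0.894, limma). The difference was 0.65 ± 0.22 (adjusted p = 0.598), and the 4 probes gave 0.47 to 0.62 in vitrified and -0.10 to -0.08 in frozen embryos. ITGB1BP1, a binding partner of the ITGB1 tail, had fitted values of 0.23 in vitrified and 0.19 in frozen embryos. All 4 tested integrin partners were above 0 in vitrified embryos and 3 of 4 in frozen embryos, with no gene passing.

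Matrix metalloproteinases were mostly dim or near 0. MMP2, gelatinase A, had vitrified ratios of 0.46, 0.23 and 0.31 (fitted 0.31 ± 0.10, adjusted p = 0.217) and frozen ratios of -0.015, -0.26 and -0.32 (fitted -0.22, adjusted p = 0.41). The groups did not overlap on that probe, a pattern of 3 above and 3 below 0 that 1.11% of all tested probes show, yet its other 5 tested probes gave vitrified values of only -0.07 to 0.04. MMP3, stromelysin 1, which was chosen after its values were seen, had vitrified ratios of 0.06, -0.11 and 0.10 and frozen ratios of -0.85, -0.46 and -0.465. Its fitted value was 0.02 in vitrified and -0.59 ± 0.12 in frozen embryos (adjusted p = 0.122, limma), and it has 1 tested probe of 3. That probe had a mean log2 intensity of 9.705. The other MMP3 probes had 6.15 and 6.24 and did not pass the filter. MMP1, interstitial collagenase, had 0.48, 0.50 and -0.06 in vitrified embryos (fitted 0.38 ± 0.15, adjusted p = 0.258) and -0.40, 0.49 and 0.11 in frozen embryos. These values come from 1 probe with a mean log2 intensity of 10.01. The other MMP1 probes, listed at the same site, had 6.35 and 6.33 and did not pass the filter. Whether the bright probe reports MMP1 was not tested. MMP9, gelatinase B, was well above background in 6 of 12 measurements and had fitted values of 0.08 and 0.07. TIMP1, an inhibitor of metalloproteinases, was above 0 on all 3 vitrified arrays (0.42, 0.29 and 0.18, fitted 0.285 ± 0.10, adjusted p = 0.22) and near 0 in frozen embryos (0.045). Of the 12 tested genes of this group 8 were above 0 in vitrified embryos (median 0.09) and 5 in frozen embryos (median -0.035). MMP14, which activates MMP2 at the cell surface, did not pass the filter, nor did 8 other MMP genes.

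A last 11 tested genes carry a matrix word in their description for a domain or a binding partner and are not matrix proteins or integrins themselves. FLRT3, a membrane protein with leucine-rich repeats and a fibronectin type III domain, had vitrified ratios of -0.76, 0.34 and 0.37 and frozen ratios of -1.20, -0.455 and -0.60 (fitted 0.07 and -0.67, adjusted p = 0.9 and 0.246). CERT1, a ceramide transporter that the array describes by its binding to type IV collagen, had -0.20 in vitrified and -0.46 in frozen embryos. FANK1, a protein with fibronectin and ankyrin domains, had 0.25 and 0.22. FNDC7, with fibronectin type III domains, had 0.07 and 0.28, and among its frozen arrays replicate 2 stood apart (0.68, beside 0.03 and -0.005). Without these genes the median of the remaining 66 was 0.04 in vitrified and -0.04 in frozen embryos.

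The direct comparison of vitrified with frozen embryos called no probe on the array (0% of 30761), and 1250 probes were higher and 1070 lower at an unadjusted p under 0.05. Among the 77 genes 7 were higher in vitrified embryos at that level (9.09%, beside 4.06% of all probes) and 0 lower (beside 3.48%). They were MMP3, MMP2, NID1, COL5A1, ILK, COL1A2 and FLRT3. This one-sided count holds for the brightest probe of each gene: of all 177 tested probes of these genes 14 were higher (7.91%) and 6 lower (3.39%). The largest differences were 0.76 ± 0.37 for PLOD2, 0.735 ± 0.29 for FLRT3, 0.71 ± 0.21 for NID1, 0.68 ± 0.33 for ITGA1, 0.67 ± 0.32 for COL4A1 and 0.65 ± 0.22 for ILK, with adjusted p from 0.593 to 0.689 (limma). No difference is given for COL15A1, which was not well above background in frozen embryos. The lowest of the others were -0.21 for FNDC7, -0.20 for ITGB1, -0.19 for COL7A1, and -0.18 for both PCOLCE2 and ITFG1. The lowest were thus much closer to 0 than the highest. The median difference over the 77 genes was 0.06, beside 0.02 over all tested probes, and 52 of the 77 were above 0. In 6 genes every vitrified ratio exceeded every frozen ratio (7.79%, beside 5.75% of all probes), and in 1, COL15A1, the reverse held (1.3%, beside 4.87%), with the same limit on its frozen signal.

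**Figure D4:**
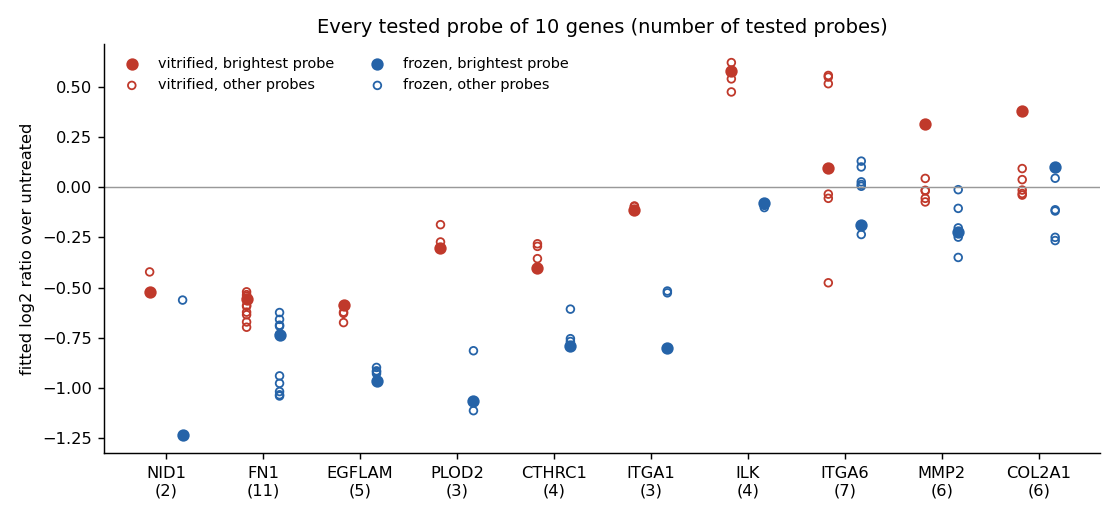
Fitted log2 ratio over untreated embryos (vertical axis) of every tested probe of 10 genes, red for vitrified and blue for frozen embryos; filled points are the brightest probe of a gene. Probes of FN1, EGFLAM, PLOD2, CTHRC1, ITGA1 and ILK lie on 1 side of 0 within each treatment, while those of ITGA6, MMP2 and COL2A1 in vitrified embryos lie on both sides.

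Where a gene had several tested probes (35 genes), all of them had the same sign in 21 genes in vitrified and in 23 genes in frozen embryos, and the median spread between the highest and lowest probe was 0.13 and 0.14. The widest spread was 1.03 for ITGA6 in vitrified and 0.67 for NID1 in frozen embryos. Probes of a gene often overlap by most of their length, so several low probes are not separate evidence.

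A wider list of 92 genes of matrix assembly, cross-linking, adhesion and protein turnover held 57 tested genes outside the set above. In vitrified embryos none passed, beside 0.0195% of all tested probes passing higher and 0% lower. In frozen embryos none passed higher, beside 0.0878% of all probes, and 1 passed lower, beside 0.0975%. It was ESM1, a secreted dermatan sulphate proteoglycan of endothelium, with ratios of -0.22, -0.45 and -0.04 in vitrified embryos and -0.56, -0.94 and -1.004 in frozen embryos. Its fitted values were -0.28 in vitrified embryos (adjusted p = 0.28) and -0.875 ± 0.12 in frozen embryos (adjusted p = 0.0492, limma). That call was lost without frozen replicate 2 or without frozen replicate 3, where no probe on the array passed in frozen embryos. The widest values belonged to ITM2A, a membrane protein, with -1.13 ± 0.46 in vitrified and -1.99 ± 0.46 in frozen embryos (adjusted p = 0.271 and 0.152). SPP1, the integrin ligand osteopontin, was the highest of the list under both treatments at 0.68 ± 0.16 and 0.72 ± 0.16 (adjusted p = 0.167 and 0.142). FBLN2, a basement membrane glycoprotein, followed in vitrified embryos with 0.58, and ADAM10, a membrane protease, was second lowest there with -0.67. ADAMTS4, an aggrecan-cutting protease, was second highest in frozen embryos with 0.495 ± 0.32. Between the treatments ECM1 (1.015 ± 0.29) and ITM2A (0.85) had the highest and CCN1 (-0.41) and ADAM10 (-0.40) the lowest differences, none passing. SERPINH1, the collagen chaperone HSP47, was chosen after its values were seen: it had ratios of -0.02, 0.66 and -0.065 in vitrified and -0.89, -0.38 and -0.42 in frozen embryos, a difference of 0.76 ± 0.17 (adjusted p = 0.54, limma). The median of the list was -0.02 in vitrified and -0.035 in frozen embryos, near 0 like that of the genes above. At an unadjusted p under 0.05 (limma), 7 genes (12.3%) were lower in frozen embryos, beside 7.17% of all probes. In the other direction 3 genes (5.26%) were higher there, beside 6.06%. In vitrified embryos 5 were higher and 5 lower (8.77% each, beside 9.98% and 7.39%).

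The 31 genes without a tested probe were spread over the roles: 4 of basement membrane, 6 other collagens (COL6A5, COL6A6, COL10A1, COL12A1, COL14A1 and COL22A1), 3 integrin alpha chains (ITGA4, ITGA8 and ITGAX), the bone and eye proteins IBSP and IMPG1, 9 metalloproteinases, and 7 genes named for a domain or partner. Their signal did not allow a comparison, and their RNA may still be present below what these arrays measure.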

How the data were processed

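The deposited files hold, per their headers, an unnormalised mean intensity and a median background intensity for each spot and channel from Agilent Feature Extraction (10.10.1.1 per the submitters' processing notes). That software's own log10 ratio, deposited beside them and already background-subtracted and dye-normalised per the file headers, was kept for an alternative. Signals were corrected with normexp (offset 50) and normalised by loess within arrays in limma 3.58.1 under R 4.3.3, and spots of a probe were averaged, giving log2 values from the deposited intensities. The filter on signal kept 30761 of 43603 probes.

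The treated over untreated log2 ratio was fitted over all 6 arrays with a vitrified, a frozen and a dye term (3 residual degrees of freedom) and eBayes. P-values were adjusted by Benjamini-Hochberg across the 30761 probes, and a result passed at 0.05. A ratio of a single array still holds the dye effect of its probe, so a fitted value is not the mean of its 3 ratios. The number of arrays limits the precision. An exact permutation test of 3 against 3 cannot give a p under 0.1, and none was run.

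Symbols came from the RefSeq table for mOryCun1.1, or for 6 genes (15 probes) from the description. The brightest probe has the highest mean log2 intensity. Members, roles and lists were chosen with earlier results of these data known. Named genes are those that passed, the 6 highest and 6 lowest per comparison, and a list of basement membrane, integrin and protease genes, and of the wider list those that passed and the 2 highest and 2 lowest per comparison. Genes outside this rule that are listed for an unadjusted p were taken after their values were seen.

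Pairing comes from the labels, which give arrays of a replicate number the same untreated extract. The deviations of paired arrays from their group means correlated at 0.02, 0.598 and 0.169. On simulated data with the fitted spread of 30761 probes, 87.2% of 2-fold changes were called in the frozen and 85.8% in the vitrified comparison. That simulation held many planted changes and gave 197 and 195 calls per set, against 57 and 6 in the data. Its calling threshold was thus looser, and it left out the shared controls, so these shares do not give the power reached here. Alternatives changed the background correction and normalisation, the filters, the dye, block and slide terms, the choice of probe, the threshold or the use of single channels, or left out an array.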

Additional observations from a re-analysis of the deposited data

Results flagged for a closer look

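For MMP2, all 3 vitrified arrays were above 0 (0.46, 0.23 and 0.31) and all 3 frozen arrays below 0 (-0.015, -0.26 and -0.32). Of the 77 tested matrix genes only this 1 had that opposite pattern on every array. That share is near the 1.11% of all tested probes that show it in the same direction. The difference, vitrified minus frozen, was 0.53 ± 0.14 (SE, limma, adjusted p = 0.593). The other 5 tested MMP2 probes gave differences of -0.006 to 0.29.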

How the results depend on the processing

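The number of matrix genes called in frozen embryos was 1. It was 0 with the scanner software's ratios, without the dye term, with slide as a covariate in either form, and with the mean over a gene's probes, and 5 with separate channels. It ranged from 0 to 6 when single arrays were left out. In vitrified embryos the count was 0, and 4 with separate channels (COL2A1, ILK, NID1 and TIMP1), where 2358 probes of the whole array were called. The random replicate block (estimated correlation -0.103) kept the NID1 call in frozen embryos (adjusted p = 0.0388), and neither it nor the fixed replicate block for vitrified against frozen embryos changed any count of matrix genes called. Between vitrified and frozen embryos the count was 0 under all 16 alternatives and without each array.

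The median log2 ratio of the 77 genes was 0.041 in vitrified embryos. It turned to -0.017 with the scanner software's ratios, to -0.014 with median centring and to -0.026 with slide as a covariate of the treated over untreated ratio. In frozen embryos it was -0.036, and -0.091 with the scanner software's ratios, where the difference between the treatments was 0.141 in place of 0.06. Leaving out single arrays gave 0.005 to 0.045 in vitrified embryos, -0.042 to -0.026 in frozen embryos and 0.057 to 0.094 for the difference. Of the single values of named genes under alternatives, 2231 stayed on their side of the threshold, 12 newly passed and 9, all NID1 in frozen embryos, no longer did.

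The count over all probes in frozen embryos, 57, moved both ways: 860 with separate channels, 502 without vitrified replicate 1 and 187 at an adjusted p under 0.10, but 33 with median centring, 23 or 3 with slide as a covariate (of the treated over untreated ratio or the dye ratio), 8 without the dye term, 1 with the scanner software's ratios, and 0 to 4 without any other single array. The brightest probe by raw signal (which changes 5 genes), a random slide block and leaving out genes named for a domain were alternatives added after seeing the data. For the 36 tested genes with a channel not well above background, the offset draws ratios toward 0. Of 123 values of named genes, 67 kept their direction under every alternative, and no called value changed direction.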
